A study of Drosophila melanogaster with 12 samples.

Results

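The 10 genes followed here belong to serine and asparagine synthesis and to the ATF4 stress pathway, measured in the larval fat body of Drosophila melanogaster. They were chosen by name: 6 enzyme genes (CG6287, CG11899, aay, Shmt, Nmdmc and AsnS) and 4 stress regulator genes (crc, Xrp1, Irbp18 and PPP1R15), of 17139 genes in the deposited table of transcript abundances. The choice was made with earlier results of these data known, so the counts of called genes below are not an independent test. All 10 were found, and all 10 were among the 9951 genes tested. In the TFAM RNAi group, the fat body driver r4-Gal4 expressed an RNAi construct against TFAM, a protein that packages and helps transcribe mitochondrial DNA. In the control group, the same driver was crossed to wild type, so both groups carried r4-Gal4. Each group had 6 RNA-seq libraries of total RNA from fat bodies dissected 96 h after egg laying. The labels did not say whether the replicates were separate animals or cultures, so the p-values rest on the spread among these libraries, and that spread may be technical. In a bulk tissue, fewer cells of a type and less RNA per cell cannot be told apart.

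Serine is made from a glycolytic intermediate in a short chain of reactions and then feeds glycine, folate-bound carbon units, phospholipids and cysteine. Asparagine synthetase makes asparagine from aspartate and glutamine. In mammalian cells ATF4, whose translation rises when the factor eIF2 is phosphorylated, switches on genes of both routes, and mitochondrial defects are a known trigger. The fly counterpart of ATF4 is crc. Because ATF4 is controlled largely at translation, the transcript level of crc is not a measure of its protein, which was not measured here.

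TFAM itself (FBgn0038805) was at 22.1 to 26.9 TPM (transcript abundance per length, scaled to the same total in every library) in TFAM RNAi libraries, against 78.5 to 101 TPM in controls, a log2 fold change of −1.88 (SE 0.077, limma adjusted p = 5.2e-09). The summed level of 11 fat body markers was 62676 to 109621 TPM in TFAM RNAi libraries and 40284 to 99561 TPM in controls, where replicates 5 and 8 stood above the other 4. Single markers separated both ways. Lsp1alpha (4990 to 15600 against 80.9 to 803 TPM) and Fbp2 (722 to 3830 against 27.5 to 319 TPM) were higher in TFAM RNAi. Lsd-1 was lower (771 to 833 against 992 to 1940 TPM), and the ranges of the rest overlapped. Markers of 3 other tissues differed between the groups without overlap or nearly so. The 9 hemocyte markers summed to 62.5 to 108 TPM in TFAM RNAi libraries and 110 to 316 TPM in controls, but of the defining genes only Pxn separated (3.2 to 6.72 against 72.7 to 247 TPM), while NimC1 and eater stayed at or below 2.38 TPM. The 7 ring gland markers summed to 9.69 to 21.4 against 54.6 to 87.7 TPM, with sad at no more than 1.74 TPM in TFAM RNAi and at least 37.7 TPM in controls, and with dib near 0 in all libraries. The 6 Malpighian tubule markers summed to 435 to 859 against 849 to 1250 TPM, but only Uro separated (274 to 545 against 600 to 972 TPM). Libraries also differed in the balance of long and short transcripts. The measure was the median log2 deviation of 866 long genes (at least 5000 bases) minus that of 4186 short genes (under 1500 bases). This long-minus-short value ran between −0.67 and 0.54 in TFAM RNAi libraries (median 0.255). In controls it ran between −0.47 and 0.44 (median −0.37), so it differed in part with the group. The part of these differences in the results was not tested, except where a fit with or without them is given.

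Of the 10 genes, 4 fell (CG6287, CG11899, AsnS and Irbp18), 1 rose (Shmt) and 5 were not called at an adjusted p under 0.05 (aay, Nmdmc, crc, Xrp1 and PPP1R15). Over all tested genes 19.6% were called, 5.75% higher and 13.8% lower in TFAM RNAi. Among the 6 enzymes 3 fell and 1 rose, and among the 4 regulators 1 fell. The fold change was negative for 9 of the 10, with a median of −0.34 on the log2 scale, beside 0.01 over all tested genes. The 9 include the 5 genes not called, among them Nmdmc at −0.01. Under quantile normalization crc (0.06) and Xrp1 (0.08) were above 0. The groups did not overlap for CG11899 and AsnS, and 13.3% of all tested genes had groups that did not overlap.

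**Figure D1:**
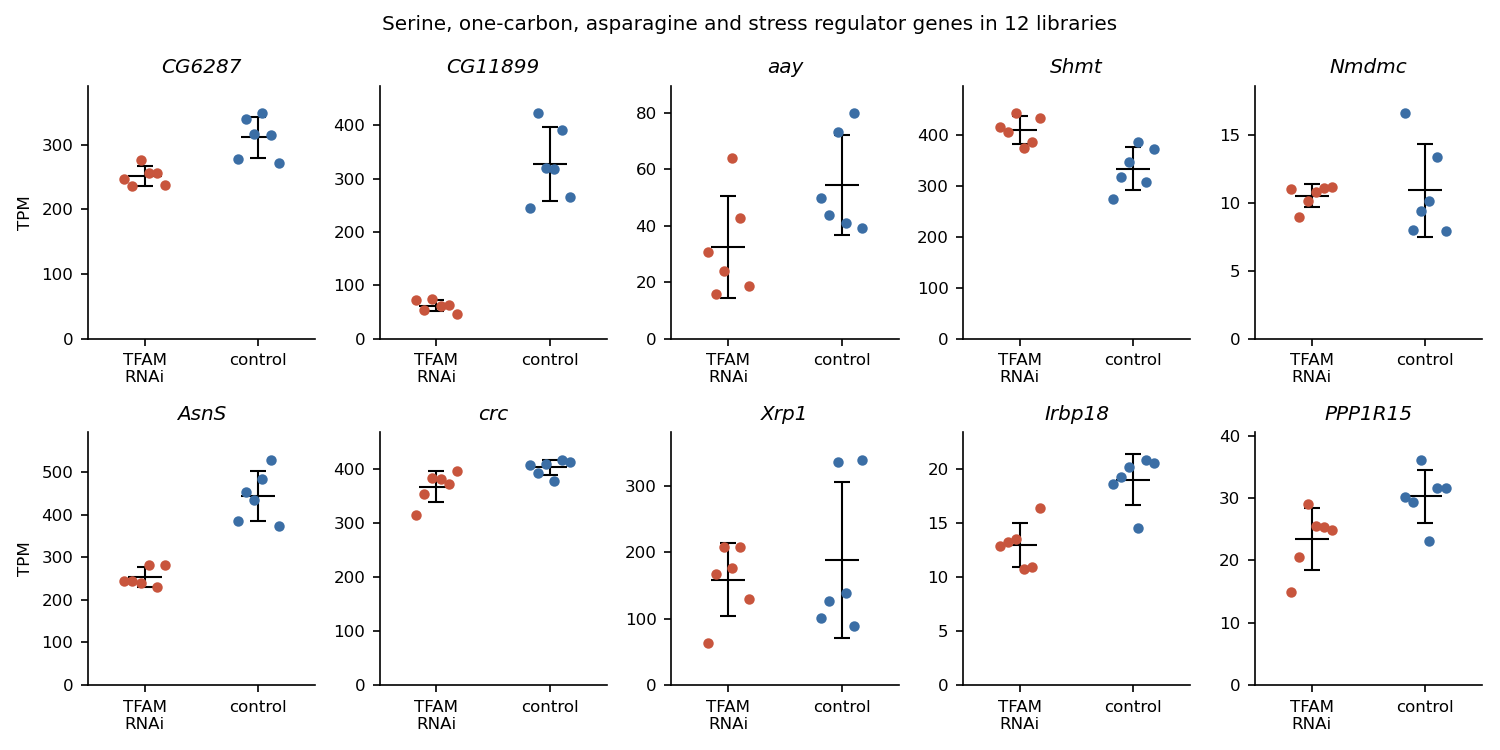
TPM of the 10 genes in each library, TFAM RNAi (red) left of control (blue), with the mean and SD of 6 libraries as black bars and every axis starting at 0. CG11899 and AsnS are the genes with no overlap between the groups, and 2 controls stand far above the others for Xrp1.

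**Figure D2:**
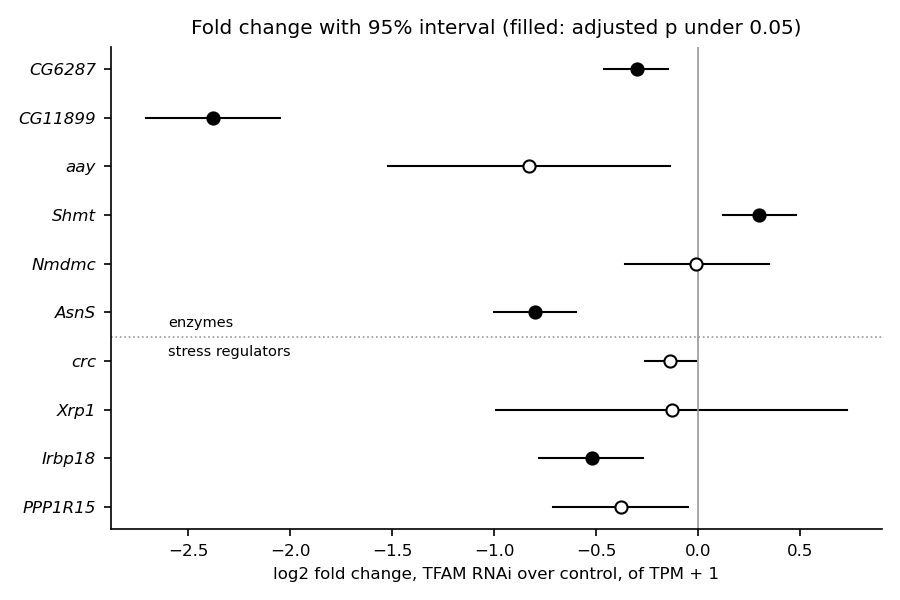
Log2 fold change of TPM + 1, TFAM RNAi over control, with its 95% interval, for the 6 enzymes (above the dotted line) and the 4 stress regulators. Filled points passed an adjusted p of 0.05; the interval of CG11899 lies far below all others and that of Xrp1 is the widest.

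The 3 enzymes that make serine did not move alike. CG6287 (FBgn0032350) is the fly counterpart of phosphoglycerate dehydrogenase, the enzyme that starts the route. Its level was 236 TPM at the lowest, 252 at the median and 277 at the highest in TFAM RNAi libraries, against 272, 316 and 349 TPM in controls. The groups overlapped by a little, since the highest TFAM RNAi library lay above the lowest control. The log2 fold change was −0.30 (SE 0.072, 95% interval −0.46 to −0.15, limma adjusted p = 0.0091), and the gene was not called after median-ratio scaling (−0.29, adjusted p = 0.19) or quantile normalization (−0.11, adjusted p = 0.29).

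CG11899 (FBgn0014427), the fly counterpart of phosphoserine aminotransferase and the second enzyme of the route, fell the most of the 10. Its lowest, median and highest levels were 46.1, 62.2 and 74.0 TPM in TFAM RNAi libraries, against 245, 319 and 423 TPM in controls. Every TFAM RNAi library was thus below every control by a wide margin. The mean was 61.5 ± 10.8 TPM in TFAM RNAi and 327 ± 69.3 TPM in control (SD, n = 6 each), 5.32-fold lower in TFAM RNAi, with a log2 fold change of −2.38 (SE 0.15, interval −2.71 to −2.05, limma adjusted p = 2.2e-07). In order of abundance among the tested genes, CG11899 stood at place 1530 in TFAM RNAi and 454 in control. The authors' deposited table of gene tests also lists it, at a q-value of 4.11e-06.

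The annotation places the 3′ end of CG11899 over that of Mesh1, a gene on the opposite strand. Mesh1 rose, to 11.4 ± 1.16 TPM in TFAM RNAi against 5.79 ± 1.15 TPM in control (log2 fold change 0.88, SE 0.128, limma adjusted p = 0.000239). The 2 genes therefore moved in opposite directions. The strand setting of the authors' counting was not stated in the labels or files used. Overlaps are also annotated on the opposite strand for Shmt (CG12236 at the 3′ end and asRNA:CR44108 inside it), Nmdmc (Mst85C at the 5′ end) and Irbp18, which lies inside CG33947. None of these 4 genes was called, and they averaged 1.65 to 6.47 TPM in TFAM RNAi and 1.95 to 8.07 TPM in control.

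aay (FBgn0023129) encodes phosphoserine phosphatase, which completes the route. Its lowest, median and highest levels were 15.8, 27.2 and 63.9 TPM in TFAM RNAi libraries, against 39.3, 46.8 and 80.0 TPM in controls. The groups overlapped through TFAM RNAi replicates 6 and 7, at 63.9 and 42.6 TPM. The log2 fold change of −0.83 (SE 0.32, interval −1.52 to −0.14) did not pass the test (limma adjusted p = 0.096). Without TFAM RNAi replicate 6, its highest library of that group, aay was at −1.05 (adjusted p = 0.018). No other fit that left out 1 library called it (adjusted p 0.08 to 0.2). With array weights it was −0.33 (adjusted p = 0.53).

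Ratios of TPM within a library do not depend on how libraries are scaled to each other. The differences on the log2 scale were taken and tested on log2(TPM + 1), so the added 1 leaves some dependence on scaling, most for low genes. CG6287 was 3.44 to 5.17 times as abundant as CG11899 in TFAM RNAi libraries (median 4.12), against 0.804 to 1.13 times in controls (median 1.0). In controls, then, the transcripts of the first and second enzyme were about equally abundant per length, and in TFAM RNAi the second was the scarcer in every library. The difference between the groups was 2.08 on the log2 scale (exact two-sided permutation test over 924 arrangements, p = 0.00216, the smallest possible; 0.0058 adjusted over the 8 pairs compared). The ratio of CG11899 to aay was 0.969 to 3.32 in TFAM RNAi and 4.36 to 9.65 in control, a difference of −1.55 (exact p = 0.00216, adjusted 0.0058). For CG6287 against aay the difference was 0.53 (exact p = 0.147, adjusted 0.24), with overlapping ratios of 4.02 to 14.9 in TFAM RNAi and 3.94 to 8.54 in control.

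**Figure D3:**
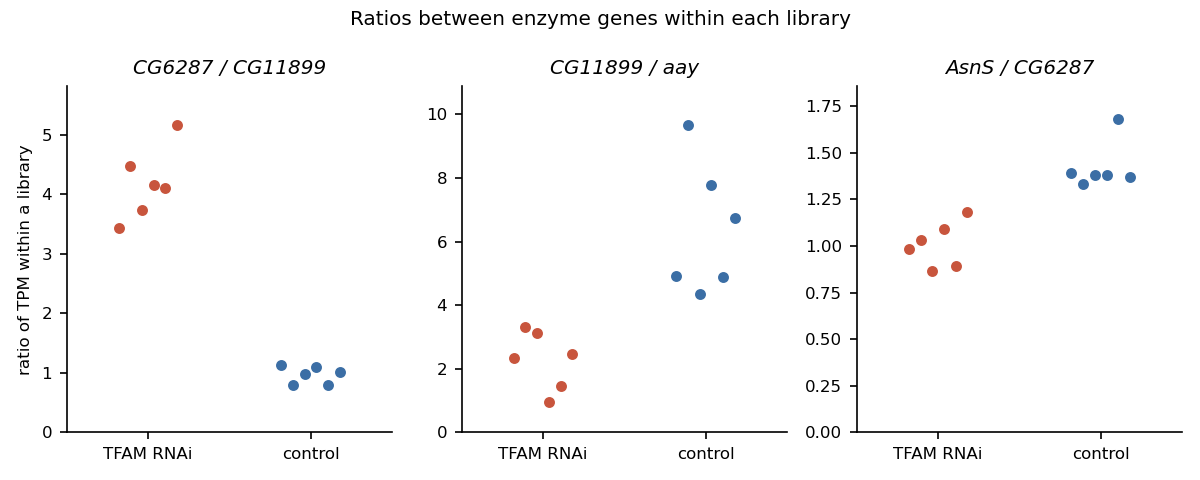
Ratio of TPM between 2 enzyme genes within each library, TFAM RNAi left of control, 1 point per library, axes starting at 0. In each of the 3 panels the TFAM RNAi libraries lie wholly on one side of the controls: above them for CG6287 over CG11899, below them for the other 2 ratios.

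Asparagine synthetase also fell. AsnS (FBgn0270926) had a lowest, median and highest level of 229, 243 and 282 TPM in TFAM RNAi libraries, against 373, 444 and 529 TPM in controls. No library of either group reached into the range of the other. The mean was 253 ± 22.5 TPM in TFAM RNAi and 443 ± 58.9 TPM in control, a log2 fold change of −0.80 (SE 0.091, interval −1.0 to −0.6, limma adjusted p = 3.4e-05). The authors' deposited table of gene tests gives it a q-value of 0.00388. AsnS fell by more than CG6287: the ratio of AsnS to CG6287 was 0.867 to 1.18 in TFAM RNAi and 1.33 to 1.68 in control, a difference of −0.50 (exact p = 0.00216, adjusted 0.0058).

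Of the enzymes that pass the carbon of serine to folate, Shmt rose slightly and Nmdmc was not called. Shmt (FBgn0029823), serine hydroxymethyltransferase, splits serine into glycine and a folate-bound carbon unit. Its lowest, median and highest levels were 374, 411 and 443 TPM in TFAM RNAi libraries, against 275, 332 and 386 TPM in controls. The groups overlapped only through TFAM RNAi replicate 6 and control replicate 6. The log2 fold change was 0.30 (SE 0.083, interval 0.12 to 0.48, limma adjusted p = 0.021). It was not called after median-ratio scaling (0.31, adjusted p = 0.22), without TFAM RNAi replicate 8 (0.28, adjusted p = 0.052) or control replicate 7 (0.28, adjusted p = 0.054), or when the 4 libraries with most RNA of other tissues, 2 per group by summed markers, were left out (0.29, adjusted p = 0.059).

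Nmdmc (FBgn0010222) encodes a mitochondrial methylenetetrahydrofolate dehydrogenase and cyclohydrolase, the counterpart of an enzyme that mammalian ATF4 is known to induce. It averaged 10.5 ± 0.864 TPM in TFAM RNAi and 10.9 ± 3.43 TPM in control, with a log2 fold change of −0.01 (SE 0.16, interval −0.36 to 0.35, limma adjusted p = 0.99). The TFAM RNAi libraries, at 8.93 to 11.2 TPM, lay inside the range of the controls, 7.94 to 16.6 TPM. Its level was spread over 3 transcripts, with the main one, NM_057581, at 51.3% of the Nmdmc TPM in TFAM RNAi and 59.5% in control, whereas NM_132050 carried 85.8% of the Shmt TPM in TFAM RNAi and 84.4% in control. NM_132050 rose by 0.32 on the log2 scale (limma adjusted p = 0.024), and the authors' deposited table of transcript tests gives it a q-value of 0.299. The difference between the fold changes of Shmt and Nmdmc was 0.31 (exact p = 0.275, adjusted 0.37).

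Among the stress regulators, crc, Xrp1 and PPP1R15 were not called and Irbp18 fell. crc (FBgn0000370), the basic leucine zipper factor that corresponds to ATF4, was abundant in both groups. Its lowest, median and highest levels were 316, 378 and 397 TPM in TFAM RNAi libraries, against 379, 409 and 418 TPM in controls. The lowest value belonged to TFAM RNAi replicate 3, and the groups overlapped. The log2 fold change was −0.14 (SE 0.058, interval −0.26 to −0.01, limma adjusted p = 0.14). It was 0.06 under quantile normalization, the other direction.

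Of the 4 annotated transcripts of crc, NM_080158 carried 92.7% of the crc TPM in TFAM RNAi and 91.5% in control. A minor transcript, NM_001273743, fell, at 6.29 ± 1.95 TPM in TFAM RNAi and 11.7 ± 2.48 TPM in control (log2 fold change −0.82, SE 0.19, limma adjusted p = 0.0084 over 15248 transcripts). The authors' deposited table of transcript tests gives NM_001273743 a q-value of 3.12e-05 and NM_080158 one of 0.782. The transcript NM_165374 had the same value as the gene CG46314 in all 12 libraries, so that value belongs to either gene. Over all 10 genes, 22 of 24 transcripts were tested, 1 was called higher and 5 lower, where 17.3% of all tested transcripts were called.

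Xrp1 (FBgn0261113) encodes a basic leucine zipper factor that is induced in fly cells short of ribosomal proteins and acts with Irbp18 as a pair. In TFAM RNAi replicates 3 to 8 it was at 62.7, 167, 207, 175, 207 and 130 TPM, against 100, 127, 335, 138, 89.1 and 339 TPM in control replicates 2, 3, 5, 6, 7 and 8. Control replicates 5 and 8 were far above the other 4 controls, and TFAM RNAi replicate 3 was the lowest of all 12. The log2 fold change of −0.13 had a wide interval, −0.99 to 0.73 (SE 0.40, limma adjusted p = 0.86). Of its 7 annotated transcripts, NM_001275790 carried 62.2% of the Xrp1 TPM in TFAM RNAi and 58.8% in control, and none of the 6 that were tested was called.

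The same libraries stood apart by other measures. Control replicates 5 and 8 had the highest summed fat body markers of the controls, 92668 and 99561 TPM, and were the only controls with a positive long-minus-short value, 0.44 and 0.38. TFAM RNAi replicate 3 had the lowest long-minus-short value, −0.67, and the lowest fat body marker sum of its group, 62676 TPM. Without control replicates 5 and 8 the log2 fold change of Xrp1 was 0.40 (limma adjusted p = 0.41), the other direction. With the long-minus-short value as a covariate it was −0.58 (adjusted p = 0.0055). In that fit crc (−0.17, adjusted p = 0.022) and PPP1R15 (−0.51, adjusted p = 0.0039) passed too, so that 7 of the 10 genes were called lower. Both alternatives were chosen after the data were seen, and the cause of the library difference was not tested.

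**Figure D4:**
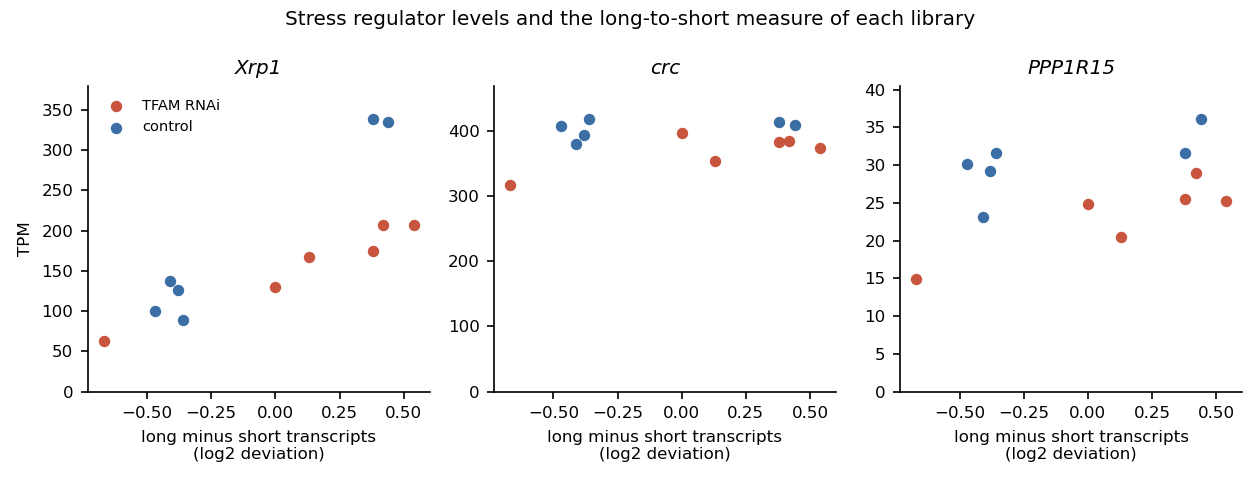
TPM of Xrp1, crc and PPP1R15 in each library against the long-minus-short value of that library (log2 deviation), TFAM RNAi in red and control in blue, vertical axes starting at 0. The 2 controls at 0.38 and 0.44 hold the highest Xrp1 levels, 339 and 335 TPM, and TFAM RNAi replicate 3 at −0.67 the lowest of each gene.

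Irbp18 (FBgn0036126), the partner of Xrp1, is a basic leucine zipper protein of the C/EBP type. Its lowest, median and highest levels were 10.7, 13.1 and 16.3 TPM in TFAM RNAi libraries, against 14.5, 19.7 and 20.9 TPM in controls. The overlap came from control replicate 6, at 14.5 TPM, and TFAM RNAi replicate 8, at 16.3 TPM. The mean was 12.9 ± 2.05 TPM in TFAM RNAi and 19.0 ± 2.35 TPM in control, a log2 fold change of −0.52 (SE 0.12, interval −0.78 to −0.27, limma adjusted p = 0.0063). The call was lost under quantile normalization (−0.46, adjusted p = 0.055) and without the 4 libraries with most RNA of other tissues (−0.45, adjusted p = 0.089).

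PPP1R15 (FBgn0034948) encodes the fly counterpart of GADD34, which directs a phosphatase to eIF2 and so ends the stress response. Its lowest, median and highest levels were 14.9, 25.1 and 29.0 TPM in TFAM RNAi libraries, against 23.1, 30.9 and 36.2 TPM in controls. The groups overlapped, with TFAM RNAi replicate 3 the lowest. The log2 fold change was −0.38 (SE 0.15, interval −0.71 to −0.05, limma adjusted p = 0.11). It passed under median-ratio scaling (−0.37, adjusted p = 0.016) and with array weights (−0.26, adjusted p = 0.047). It did not pass under quantile normalization (−0.22, adjusted p = 0.18) or by the rank-sum test (adjusted p = 0.11). Nor did it pass in any fit that left out 1 library (adjusted p 0.057 to 0.21). The authors' deposited table of gene tests lists PPP1R15 at a q-value of 0.035. That table holds 1561 genes with a q-value under 0.05, among them CG11899, AsnS and PPP1R15 and none of the other 7. The authors' table of transcript tests gives the transcript of PPP1R15 a q-value of 0.0744.

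Within libraries, crc kept more of its level than Irbp18: the ratio of crc to Irbp18 was 24.3 to 35.7 in TFAM RNAi and 20.1 to 26.2 in control, a difference of 0.39 on the log2 scale (exact p = 0.00649, adjusted 0.013). The differences between crc and Xrp1 (−0.01, exact p = 0.983) and between Xrp1 and Irbp18 (0.39, exact p = 0.394) did not pass. As a description over the 12 libraries, after the group means were removed, crc and PPP1R15 deviated together (Pearson r = 0.91), as did CG6287 and CG11899 (0.75) and Xrp1 and PPP1R15 (0.64), while Shmt and Nmdmc deviated in opposite directions (−0.63). These points share the library and its scaling. Among 6951 genes averaging 5 TPM or more, those whose deviations were most like those of crc were His3.3B (0.949), Dlip2 (0.947) and alphaSnap (0.93). For Xrp1 they were htk (0.972), Myc (0.971) and tai (0.97). For CG6287 they were CG9928 (0.924), CG1750 (0.893) and CG11425 (0.886), and for AsnS CG12056 (0.817), Spn43Ab (0.81) and Hn (0.786).

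Next came the genes that handle serine, glycine and folate-bound carbon. Of 20 tested genes of glycine cleavage, folate and serine or threonine breakdown, 7 rose, 2 fell and 11 were not called, with a median log2 fold change of 0.23. The glycine cleavage system, a mitochondrial complex that breaks down glycine and loads a carbon unit on folate, rose in 3 of its 4 tested genes. CG6415, the aminomethyltransferase, was at 673 ± 51.7 TPM in TFAM RNAi and 294 ± 53.4 TPM in control (log2 fold change 1.21, limma adjusted p = 3.8e-06), ppl, the lipoyl carrier protein, at 970 ± 44.8 and 576 ± 65.5 TPM (0.76, adjusted p = 7.2e-06), and CG3999, the glycine decarboxylase, at 253 ± 24.1 and 151 ± 14.5 TPM (0.74, adjusted p = 2.5e-05). The fourth, the dihydrolipoyl dehydrogenase CG7430, was at 380 ± 48.1 TPM in TFAM RNAi and 413 ± 32.2 TPM in control (−0.12, adjusted p = 0.39). pug, a folate enzyme of the cytosol, rose by 0.51 (adjusted p = 0.021), which was not called with median-ratio scaling (0.52, adjusted p = 0.052), by the rank-sum test (adjusted p = 0.071) or without control replicate 7 (0.48, adjusted p = 0.052). CG1236, the counterpart of glyoxylate and hydroxypyruvate reductase, fell to 84.2 ± 8.50 TPM in TFAM RNAi against 320 ± 89.9 TPM in control (−1.87, adjusted p = 4.1e-06).

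Of 11 tested genes of the methionine cycle, transsulfuration and glutathione synthesis, 6 rose and 2 fell, with a median of 0.39. The rises of Gss1 and Gss2 rest on the same values. CG10621, a homocysteine methyltransferase, was at 439 ± 67.1 TPM in TFAM RNAi and 93.2 ± 36.6 TPM in control (log2 fold change 2.30, limma adjusted p = 1.2e-05). Ahcy, adenosylhomocysteinase, rose by 0.64 (782 against 507 TPM, adjusted p = 0.00064) and Cth, which releases cysteine from cystathionine, by 0.59 (377 against 250 TPM, adjusted p = 1e-05). Cbs, which joins serine and homocysteine to cystathionine, fell to 50.0 ± 7.81 TPM in TFAM RNAi against 103 ± 24.2 TPM in control (−1.0, adjusted p = 0.00047).

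Of 15 tested genes of aspartate, glutamate, glutamine, alanine and proline metabolism, 5 rose and 3 fell, with a median of 0.21. The aminotransferases that make aspartate, the substrate of AsnS, rose: Got1 to 200 ± 26.0 TPM in TFAM RNAi against 107 ± 9.10 TPM in control (log2 fold change 0.88, limma adjusted p = 2.3e-05), and Got2 to 753 ± 65.8 against 433 ± 35.4 TPM (0.80, adjusted p = 4.1e-06). CG1640, an alanine aminotransferase, rose by 0.63 (159 against 103 TPM, adjusted p = 3.6e-05). The groups did not overlap for any of these 3 genes.

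**Figure D5:**
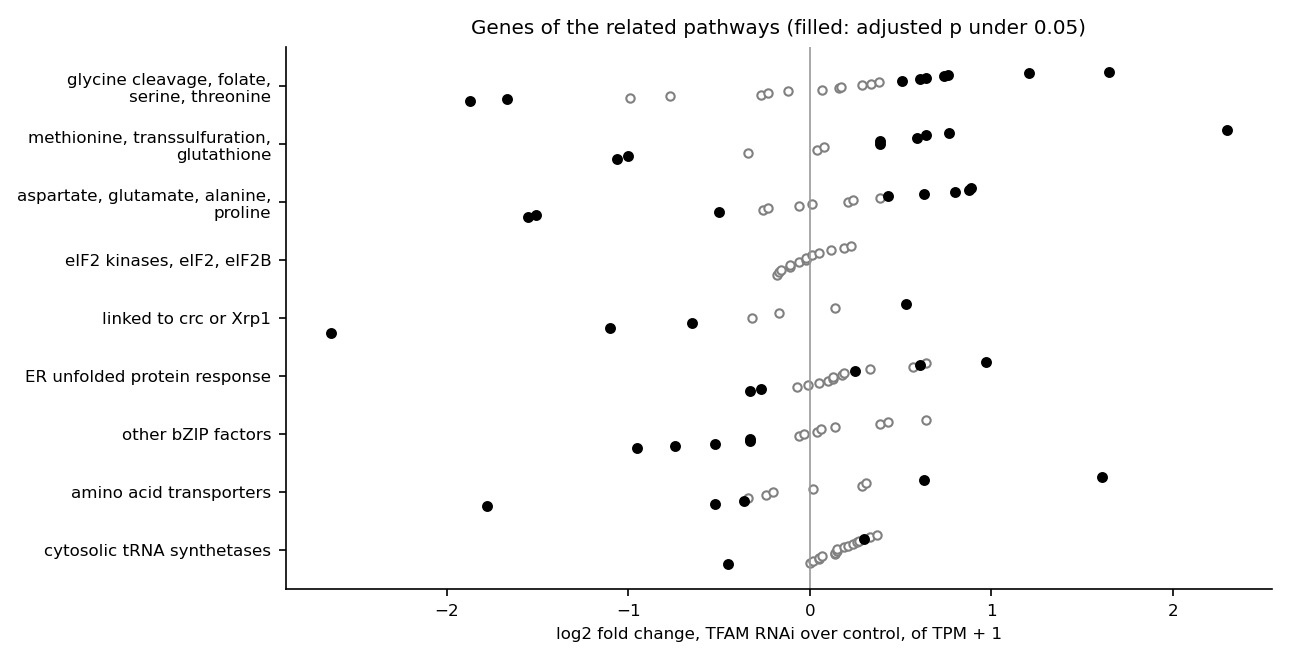
Log2 fold change of TPM + 1, TFAM RNAi over control, of each tested gene in 9 lists of related pathways. Filled points passed an adjusted p of 0.05; the eIF2 list holds none, and Xbp1 and Atf6 appear in both the unfolded protein response and the bZIP list.

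The genes upstream of crc were not called by limma in the fit used here, and some settings called a few. Of 13 tested genes for eIF2 kinases, eIF2, its exchange factor eIF2B and translation factors linked to crc, 0 rose and 0 fell with limma, with a median of −0.02 and 3 genes at an unadjusted p under 0.05. Gcn2, the kinase that senses uncharged tRNA, was at 4.34 ± 1.14 TPM in TFAM RNAi and 3.68 ± 1.04 TPM in control (log2 fold change 0.19, limma adjusted p = 0.58). PEK, the kinase of the endoplasmic reticulum, was at 12.9 ± 2.94 and 14.5 ± 2.79 TPM (−0.17, adjusted p = 0.57). An exact rank-sum test called 1 of them lower. With array weights 3 were called higher, Gcn2 among them (0.34, adjusted p = 0.045), and 3 lower, and without TFAM RNAi replicate 3 the count was 1 higher. It was 3 higher and 0 lower under quantile normalization, and 0 higher and 3 lower, PEK among them (−0.34, adjusted p = 0.0025), with the long-minus-short covariate.

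Of 10 genes that published fly work links to crc or Xrp1, 7 were tested, of which 1 rose and 3 fell, with a median of −0.32. Ets21C, a transcription factor of the ETS family, fell to 0.790 ± 0.335 TPM in TFAM RNAi against 10.1 ± 1.54 TPM in control (log2 fold change −2.64, limma adjusted p = 7.2e-08), with no overlap between the groups. Gadd45, a stress-response gene, fell to 8.64 ± 2.45 against 20 ± 7.06 TPM (−1.10, adjusted p = 0.0039), and Sesn, sestrin, by 0.65 (adjusted p = 0.02; 0.097 without the 2 controls richest in fat body markers). trbl, a pseudokinase of the tribbles family, rose by 0.53 (adjusted p = 0.029), but lost the call in 8 of the 12 fits that left out 1 library (adjusted p up to 0.071) and by the rank-sum test (0.071). Thor, the translation repressor 4E-BP and a known target of crc, was at 84.9 ± 26.0 TPM in TFAM RNAi and 104 ± 66.5 TPM in control (−0.17, adjusted p = 0.79).

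Of 13 tested other basic leucine zipper genes, 5 fell and 0 rose, with a median of −0.03. kay (fly Fos) was at 7.89 ± 2.01 TPM in TFAM RNAi and 16.7 ± 5.66 TPM in control (log2 fold change −0.95, limma adjusted p = 0.014), Jra (fly Jun) at 12.1 ± 1.57 and 17.95 ± 3.35 TPM (−0.52, adjusted p = 0.015) and REPTOR-BP at 12.8 ± 2.19 and 23.1 ± 8.29 TPM (−0.74, adjusted p = 0.028). REPTOR-BP lost the call with no filter, under both other scalings, by the rank-sum test and in 7 of the 12 fits that left out 1 library (adjusted p 0.053 to 0.071 over these). kay and Jra lost it by the rank-sum test (0.11 and 0.071) and without the 4 libraries with most RNA of other tissues (0.07 and 0.082), where 2 of the list were called lower. kay also lost it without the 2 controls richest in fat body markers (0.063). Atf3 was low, at 2.06 ± 1.33 and 2.51 ± 2.63 TPM (−0.06, adjusted p = 0.95).

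Of 16 tested genes of the unfolded protein response of the endoplasmic reticulum, 3 rose and 2 fell, with a median of 0.15. Pdi, a disulfide isomerase, rose to 3924 ± 359 TPM in TFAM RNAi against 2025 ± 430 TPM in control (log2 fold change 0.97, limma adjusted p = 8e-05), and the chaperone gene Gp93 rose by 0.61 (adjusted p = 0.012). Xbp1, the transcription factor of this response, fell to 197 ± 18.2 against 248 ± 17.9 TPM (−0.33, adjusted p = 0.0054), and Calr, calreticulin, fell by 0.27 (adjusted p = 0.031). Neither fall passed with median-ratio scaled libraries (adjusted p = 0.13 and 0.24) or after quantile normalization (0.19 and 0.051). The Calr call was also lost with no filter (0.051), with no trend (0.064), in 7 of the 12 fits that left out 1 library (0.052 to 0.072), without the 4 libraries with most RNA of other tissues (0.056) and without the 2 controls richest in fat body markers (0.1).

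The amino acid transporters moved in both directions. Of 11 tested SLC7 and SLC36 amino acid transporter genes, 2 rose and 3 fell, with a median of −0.20. CG7255 was at 12.9 ± 4.65 TPM in TFAM RNAi and 3.42 ± 0.733 TPM in control (log2 fold change 1.61, limma adjusted p = 9.6e-05). CG1607 was at 19.8 ± 6.60 TPM in TFAM RNAi and 70.0 ± 24.7 TPM in control (−1.78, adjusted p = 0.00026), while JhI-21 and CG13384 fell by 0.52 (adjusted p = 0.0015) and by 0.36 (adjusted p = 0.01). The CG13384 call was lost without the 4 libraries with most RNA of other tissues (adjusted p = 0.058). Of 18 tested cytosolic aminoacyl-tRNA synthetase genes, which load amino acids onto tRNA, 1 rose (CysRS, 0.30, adjusted p = 0.01) and 1 fell (HisRS, −0.45, adjusted p = 0.0021). In 17 of the 18 the log2 fold change was above 0, with a median of 0.15. That count depended on the scaling, with 0 called under median-ratio scaling and 12 higher and 1 lower under quantile normalization.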

How the data were processed

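RNA-seq of larval fat body was analysed in 6 TFAM RNAi and 6 control libraries. The authors deposited TPM (abundance per length, scaled to the same total in every library) for 34213 RefSeq transcripts, and p-values and q-values of gene and transcript tests; the submitters' processing notes name sleuth, and the quantifier, its strand setting and the genome build are not given in the sources used here. Because TPM holds no read totals, sequencing depth is unknown, and intervals for counting error are not given.

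Transcripts were named by accession through a RefSeq table (Release 6 plus ISO1 MT; 99.65% matched) and TPM summed to 17139 genes; 0 columns of per-sample values were left out. Overlaps between genes come from the BDGP6 annotation, without coordinates. The 9951 genes averaging 1 TPM or more were tested with limma 3.58.1 in R 4.3.3 (lmFit, eBayes with trend, two-sided) on log2(TPM + 1), which understates changes of low genes. P-values were adjusted by Benjamini-Hochberg across these genes, with calls at under 0.05. SE is moderated. Pairs of genes were compared by exact permutation of the within-library difference of log2(TPM + 1) in Python 3.11.15. The fit was tested on simulated data.

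The 10 genes, the lists and the rule for named genes (the 10, TFAM, up to 4 called genes per list with the smallest adjusted p, and Thor, Gcn2, PEK, CG3999, pug, Got2 and Atf3) were chosen with earlier results of these data known. Gss1, Gss2, CG7430, the genes that overlap one of the 10 and the marker genes named are outside that rule and were named after their values were seen. A gene that the rule names is not reported here. Of the 10 genes, those that share exact values with or overlap another gene are named as such. Alternatives were other pseudocounts, filters, scalings, limma options, an exact rank-sum test, a replicate block and leaving out each library. Another 3 were added after the data were seen: without the 4 libraries with most RNA of other tissues (2 per group, by summed markers), without the 2 controls richest in fat body markers, and with the long-minus-short value as a covariate.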

Additional observations from a re-analysis of the deposited data

Results flagged for a closer look

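In 92 groups of 6 libraries (46 genes), 6 held a library far from the other 5, its gap to the nearest being over 0.625 of the range. Chance flags about 5% of groups. Among the 10 genes of interest 1 was flagged: Irbp18 in control replicate 6, at 14.5 TPM, below the other 5 controls. TFAM RNAi replicate 3, the library with the lowest long-minus-short value, was flagged for 3 genes, pug at 175 TPM, Got1 at 150 TPM and REPTOR-BP at 17.1 TPM. Thor stood apart in control replicate 3 at 232 TPM, and CG1607 in control replicate 5 at 117 TPM.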

How the results depend on the processing

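The falls of CG11899 and AsnS were called in every alternative run. Of the 10 genes, 0 were called higher under median-ratio scaling, with a replicate block and without the 4 libraries richest in other-tissue markers, 2 were called lower under quantile normalization and 7 with the long-minus-short covariate; leaving out 1 library gave 0 to 1 higher and 4 to 5 lower. Over all genes 961 were called higher under quantile normalization, 2633 with array weights and 1344 with the replicate block, and leaving out 1 library gave 473 to 816 higher and 1157 to 1427 lower. With the long-minus-short covariate, more genes were called lower over all genes than the 1377 without it.

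Uncalled values changed direction. Nmdmc had a log2 fold change of 0.00 under median-ratio scaling, 0.03 under quantile normalization, 0.16 with the block, 0.02 without the 4 libraries and 0.06 with the covariate. crc had 0.06 under quantile normalization. Xrp1 had 0.08 under quantile normalization, 0.31 with array weights, 0.15 without the 4 libraries and 0.40 without the 2 controls. Thor had 0.04 under quantile normalization, Atf3 0.12 with array weights, 0.09 without the 4 libraries and 0.51 without the 2 controls, and Gcn2 −0.01 with the covariate. With 1 library left out, Nmdmc ran between −0.08 and 0.12, Xrp1 between −0.30 and 0.11, Thor between −0.33 and 0.09, Atf3 between −0.22 and 0.24, and crc minus Xrp1 between −0.21 and 0.18. The cause was not tested.

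The labels did not say whether replicate numbers pair the samples. Deviations of the 5 shared numbers correlated at −0.077 to 0.62, and 2 of 5 correlated best with their own number. With so few numbers these correlations cannot decide whether there was pairing. With the replicate block the calls of Shmt (0.25, adjusted p = 0.07), trbl (0.061), CysRS (0.055), Jra and CG13384 (both 0.05 as rounded) were lost. Some list counts moved over 1.5 times. The unfolded protein response list had 11 higher with array weights and 0 lower under median-ratio scaling, the bZIP list 2 lower under both scalings, and the tRNA synthetase list 10 higher with array weights.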
